A study of Drosophila melanogaster with 25 samples.

Results

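Wing imaginal discs homozygous mutant for mahjong (mahj) were compared with wild-type (WT) discs by RNA sequencing of whole discs. Libraries were taken by their label: 2 libraries of mahj discs, mahj1 and mahj2, were set against the 8 WT libraries, WT1 to WT8, out of 19 libraries in the series. All larvae were wandering third-instar larvae reared at 25 °C, and each sample held 50 discs. The mahj larvae carried hs-FLP, which is a heat-inducible recombinase, 1 copy of stauGFP and the FRT42D recombination site, with mahj mutant on both copies of the chromosome. The WT group held 6 yw libraries (WT1 to WT4, WT7 and WT8) and 2 libraries of FRT82, ubi-GFP larvae (WT5 and WT6), so that no WT library shared the FRT42D chromosome of the mutant. Discs of 3 other mutants, with 2 libraries each, were used to find where mahj differed: RpS3 (FRT82B, RpS3[Plac92], ubi-GFP/+), RpS3* (FRT82B, RpS3*/+) and RpS15 (FRT42D, M(2)53[1]/+). The labels used here do not say whether libraries of a group came from separate cultures, so p-values measure the spread between these libraries.

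Mahj is the fly counterpart of DCAF1, a substrate receptor of the CRL4 ubiquitin ligase, in which the scaffold Cul4 and the adaptor DDB1 bring a target protein to the ubiquitin-transferring machinery. It also binds the polarity protein Lethal giant larvae. Cells that lack mahj are viable on their own but are removed as losers when they grow beside WT cells, a process called cell competition. In whole mutant discs every cell carries the mutation, so the profile was taken without competing neighbours. Terms used below are the JNK cascade (a stress kinase pathway that starts with the ligand Eiger), the JAK/STAT cascade (cytokine signalling through Unpaired ligands) and Xrp1 (a stress-inducible transcription factor).

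Expression was deposited as FPKM, the number of fragments mapped per kilobase of transcript and scaled to library size, for 13955 genes. Whole-read steps in the values implied 12119713 to 16977734 reads per library, and 15196614 and 15416447 in mahj1 and mahj2. The series lists 25 sample records for the 19 libraries because some runs were recorded apart. WT1, WT2 and both mahj libraries had 2 sequencing runs pooled, although the WT1 column is headed as run 1 only. The white gene w was at 0 to 0.0547 FPKM in 5 of the 6 libraries labelled yw, but at 26.3 FPKM in the library labelled WT4, close to the 24.8 and 29.2 FPKM of WT5 and WT6, so that WT4 goes against its label for this gene. In mahj1 and mahj2 w was at 0.224 and 0.827 FPKM. Without WT4 the number of genes called below went from 1306 to 1193. Fat body markers (8 larval serum and fat body protein genes) summed to 1481 FPKM in mahj1, 81.1 in mahj2 and 53.8 to 340 in WT, so mahj1 stood apart. Wing disc epithelium markers were present in both mutant libraries. The 11 markers summed to 650 FPKM in mahj1, 696 in mahj2 and 654 to 818 in WT. Of them, nubbin (nub) was at 85.6 and 88.8 FPKM against 80.5 to 92.5 in WT, while Dll and en fell, as described below.

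The mutated gene itself was measured first. The mahj gene lies on chromosome arm 2R from 21625030 to 21631422 (BDGP6.54 annotation). Its mRNA was at 17.2 FPKM in mahj1 and 17.2 FPKM in mahj2, against 23.4 to 29.1 FPKM in WT, with a median of 25.7. The groups did not overlap, and the fall was 0.57 on the log2(FPKM + 1) scale (SE 0.09, adjusted p = 0.0012, limma with Benjamini-Hochberg adjustment). The transcript therefore remained at 0.66 of the WT mean in homozygous mutant discs. The next gene on the arm, CG15674, starts 585 bp beyond the end of mahj, and was at 28.7 and 29.1 FPKM in the mutant against 5.45 to 9.72 FPKM in WT. This neighbour rose by 1.75 on the log2(FPKM + 1) scale (SE 0.16, adjusted p = 1.3e-05). It was at 6.47 to 7.79 FPKM on average in the other 3 mutants. stau, the gene of the stauGFP insertion, was at 36.5 and 34.7 FPKM, above the 19.8 to 31.1 FPKM of WT, with an adjusted p of 0.13.

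Of 8145 genes with at least 1 FPKM in 2 or more of the 10 libraries, 1306 (16%) differed between mahj and WT at an adjusted p under 0.1. Of these, 760 genes (9.33%) were higher and 546 (6.70%) lower in mahj discs. The rise or fall was at least 2-fold on the log2(FPKM + 1) scale for 242 of the 760 and 79 of the 546. The mahj and WT libraries did not overlap in 1210 of the called genes (14.9% of those tested), while 22.5% of all genes tested had no overlap whatever their p (11.9% with mahj higher and 10.5% with mahj lower). Of the 8145 genes, 170 passed the filter only through the mahj libraries, so that they could hardly be called lower, and 111 of these were called higher. Against the yw libraries alone 17.7% of genes were called (10% higher, 7.68% lower), and against the single-run WT libraries 15.3% (8.28% higher, 7.05% lower). Against the FRT82, ubi-GFP libraries alone 12.6% were called (7.39% higher, 5.22% lower), and against WT1 and WT2 alone 32.1% (19.1% higher, 13.0% lower). In whole-disc RNA, fewer cells of a type and less RNA per cell cannot be told apart. As a background within WT, 65 of 7975 genes (0.815%) differed between the FRT82, ubi-GFP and the yw libraries by the same test, 0.589% higher and 0.226% lower in the former. WT4 counted as yw in this background, which was not run without it.

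The 2 mahj libraries moved in the same direction for all 1306 called genes, as the call nearly requires, but not by the same amount. mahj1 lay above mahj2 in 602 of the 760 higher genes and below it in 408 of the 546 lower genes, so its distance from WT was usually the larger. Beyond the called genes, 114 of the 8145 genes tested differed by more than 1 on the log2(FPKM + 1) scale between both libraries, and 82 of these were higher in mahj1. The 5 genes that differed most were Lsp1alpha, Lsp1gamma, Lsp1beta, CG34166 and Obp99b. The larval serum protein Lsp1beta was at 511 FPKM in mahj1, 13.7 in mahj2 and 3.08 to 40.5 in WT. Obp99b, which encodes an odorant-binding protein, was at 257 FPKM in mahj1, 6.4 in mahj2 and 11.9 to 82.7 in WT. None of the 8 fat body markers was called, but with mahj1 as the only mutant library 5 were called higher. With mahj2 as the only mutant library 281 genes were called (3.50% of 8028, 2.30% higher and 1.20% lower), and 279 of them were among the 1306, whereas with mahj1 alone 755 were called (9.38% of 8052, 5.56% higher and 3.81% lower). Without WT4 14.7% of 8124 genes were called, 8.65% higher and 6.03% lower. The lone library was then assumed to vary as the WT libraries do.

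**Figure D1:**
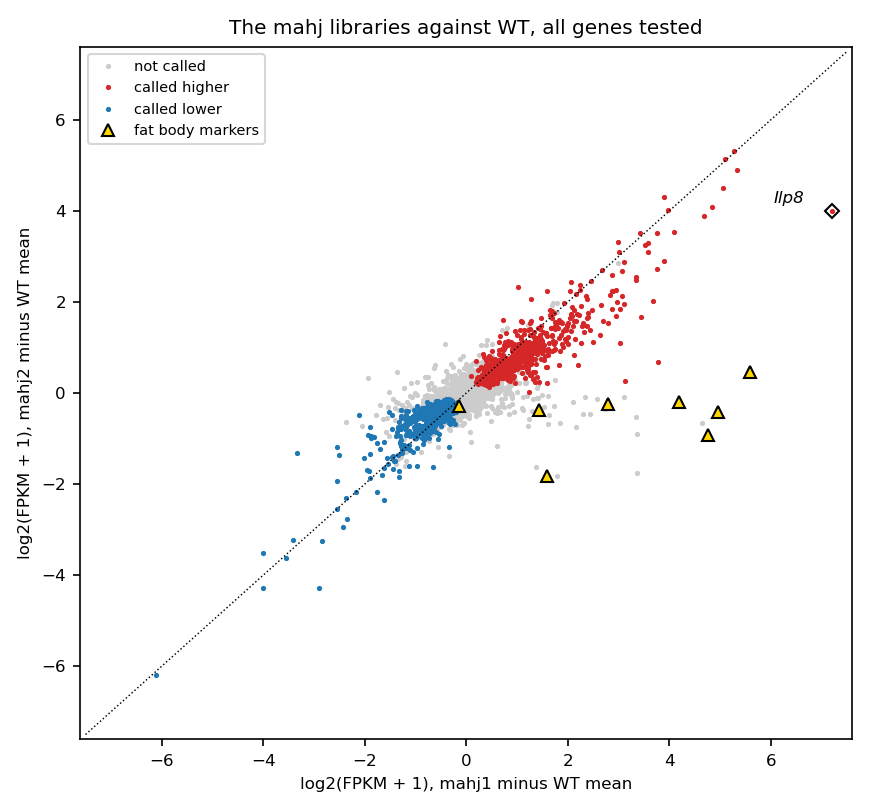
Difference of each gene from the WT mean on the log2(FPKM + 1) scale in mahj1 (x axis) and mahj2 (y axis) for the 8145 genes tested. Red and blue points are genes called higher and lower, grey points are not called, yellow triangles are the 8 fat body markers and the diamond is Ilp8. Called genes have the same direction in both libraries, and most lie off the dotted line of equal change, further from WT in mahj1. Most fat body markers lie to the right of the line, high in mahj1 only.

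The largest rises were of genes nearly silent in WT discs. Of the 15 genes with the largest rise, 12 had a WT mean under 1 FPKM, and the groups did not overlap in any of the 15 because the rule required it. Ilp8 encodes the relaxin-like hormone by which damaged discs delay metamorphosis. It was at 176 FPKM in mahj1 and 18.1 FPKM in mahj2, against 0.0747 to 0.408 FPKM in WT. Both mutant libraries were far above every WT library but differed widely from each other, and the difference was 5.60 on the log2(FPKM + 1) scale (SE 0.57, adjusted p = 8.4e-05). With WT1 and WT2 as the only controls the adjusted p of Ilp8 was 0.145. CG34002 was at 53.4 and 55.2 FPKM in mahj against 0.168 to 1.01 FPKM in WT, a rise of 5.29 (SE 0.19). CG18063 was at 39.6 and 29.2 FPKM against at most 0.102 FPKM in WT. CG31206 was at 34 and 35.1 FPKM against at most 0.0757 FPKM. Of the 15 genes, 11, these among them, were under 1.1 FPKM in every WT library and passed the filter only through the mahj libraries. They were also picked by their size of rise, so their distance from WT is not independent evidence.

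The other large rises were of enzymes, receptors and transport proteins. GstE6, a glutathione S-transferase, was at 112 and 74.8 FPKM in mahj against 1.29 to 3.97 FPKM in WT (4.78 on the log2(FPKM + 1) scale, adjusted p = 3.8e-08). CG15784 was at 233 and 159 FPKM against 10.7 to 20.9 FPKM. The G protein-coupled receptor gene mthl8, Snap25 (a membrane-fusion protein of synapses), Nha2 (a sodium/proton antiporter), CG10887, CG14695 and CG15431 were all under 0.5 FPKM in every WT library and at 9.13 to 28.5 FPKM in mahj. The gene listed as FBgn0038347 was at 34.3 and 19.8 FPKM against at most 0.466 FPKM in WT. The sugar receptor gene Gr64a and rosy (ry, xanthine dehydrogenase) also rose, but their WT libraries were not alike. Gr64a was at 7.31 and 7.8 FPKM in WT5 and WT6 and at most 0.173 FPKM in the yw libraries, against 25.2 and 12.1 FPKM in mahj. Its adjusted p was 0.06, and 0.103 without WT3, 0.1 without WT2, 0.52 without mahj1 and 0.176 without mahj2. ry was at 17.1 and 14 FPKM in mahj, 2.27 and 2.66 FPKM in WT5 and WT6 and at most 0.495 FPKM in the yw libraries (adjusted p = 0.00051).

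**Figure D2:**
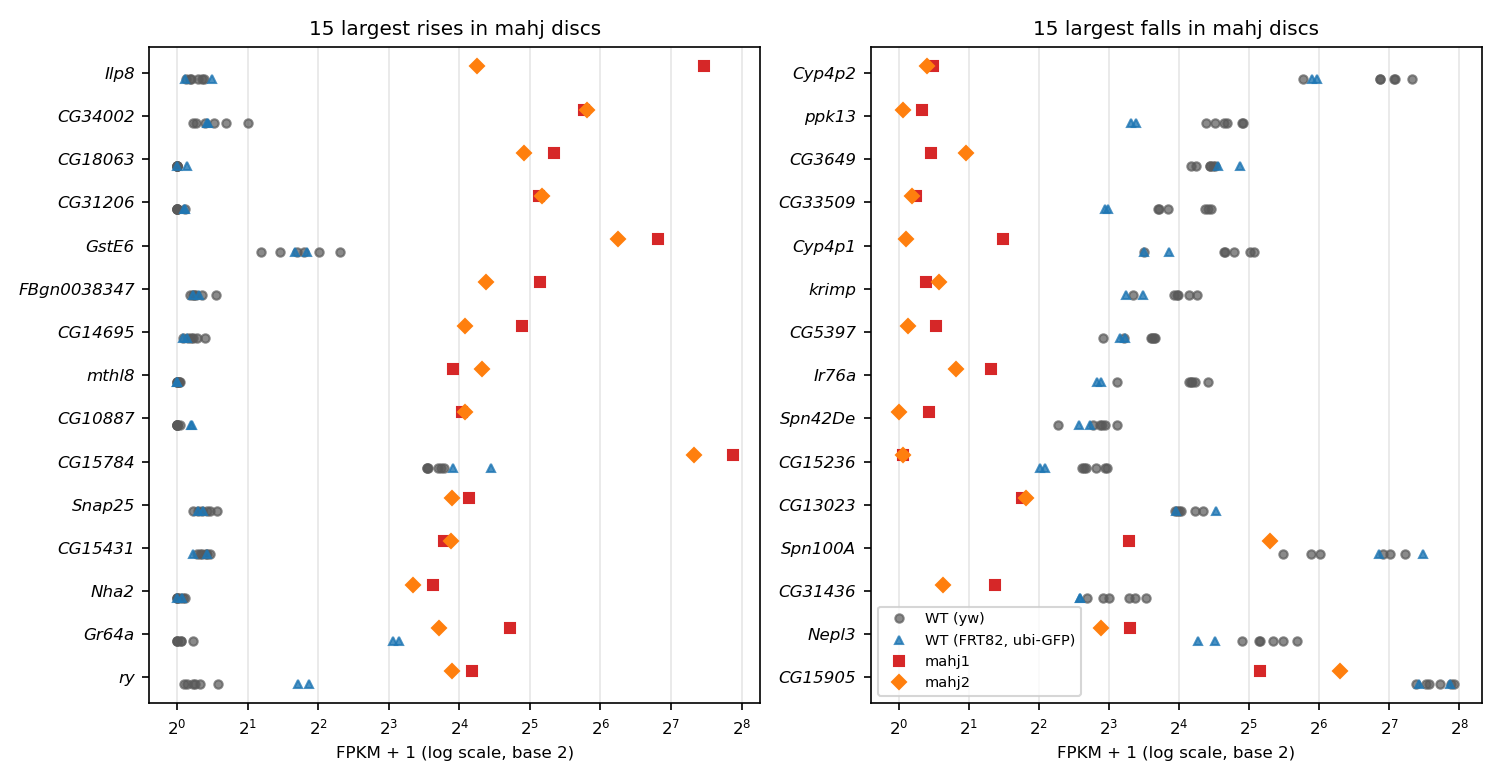
FPKM + 1 on a log axis for the 15 genes with the largest rise (left) and the 15 with the largest fall (right) in mahj discs, 1 point per library: grey circles yw WT, blue triangles FRT82, ubi-GFP WT, red squares mahj1, orange diamonds mahj2. Ilp8 differs most between the mahj libraries, and for Cyp4p2, Cyp4p1 and Gr64a the WT libraries fall into separate levels.

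The largest falls were near-complete losses of single genes. Both mahj libraries were under 1 FPKM in 8 of the 15. The cytochrome P450 gene Cyp4p2 was at 0.408 and 0.328 FPKM in mahj against 53.5 to 159 FPKM in WT, with a median of 116 (−6.15 on the log2(FPKM + 1) scale, SE 0.42, adjusted p = 8.7e-06). Within WT it was lower in WT4, WT5 and WT6, at 53.5 to 61.9 FPKM, than in the other yw libraries. Its neighbour in name, Cyp4p1, was at 1.8 and 0.0772 FPKM against 10.4 to 32.6 FPKM. krimp, whose Tudor-domain product acts in the piRNA pathway that silences transposons in the germline, was at 0.31 and 0.483 FPKM against 8.46 to 18.1 FPKM in WT (−3.32, adjusted p = 2.7e-06). The sodium channel gene ppk13 fell from 8.95 to 29.1 FPKM in WT to 0.261 and 0.0428 FPKM. CG3649, CG33509, CG5397, CG15236 and the serpin Spn42De were also under 1 FPKM in mahj, with WT medians of 5.29 to 21.1 FPKM. The ionotropic receptor gene Ir76a was at 1.5 and 0.755 FPKM against 6.09 to 20.3 FPKM.

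Several of these losses were not limited to mahj. In RpS15 discs, the other mutant on an FRT42D chromosome, 7 of the 15 genes had a mean under 1 FPKM, whereas none of the 15 did in RpS3 or RpS3* discs. Cyp4p2 was at 0.161 FPKM on average in RpS15 discs, 121 in RpS3 and 181 in RpS3*. ppk13 was at 0.251 FPKM in RpS15 against 74.8 and 117 FPKM in RpS3 and RpS3*. The part of the FRT42D stock and of the mahj mutation in these falls cannot be told apart for genes that are low in both FRT42D genotypes. krimp, CG3649 and CG5397, by contrast, were at 8.33, 13 and 12.6 FPKM in RpS15 discs. By their labels, RpS15 discs were heterozygous for the FRT42D chromosome and mahj discs homozygous for theirs. The part of the homozygous chromosome outside mahj was therefore not tested for these genes either. The serpin Spn100A, the protease-like Nepl3, CG15905, CG13023 and CG31436 completed the 15. Spn100A was at 8.73 and 38.4 FPKM against 43.9 to 178 FPKM, and its adjusted p of 0.044 became 0.587 without mahj1.

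Among the partners of Mahj, the CRL4 scaffold Cul4 was at 39.5 and 40.2 FPKM in mahj discs, within the 35.1 to 43.5 FPKM of WT. Of 21 genes of the cullin ligase list, which includes mahj, 2 rose (9.52%) and 4 fell (19.1%), against 9.33% and 6.70% of all genes. The share that rose was thus near that over all genes, and the median difference was −0.05 against −0.01 over all genes tested. Cul2, the scaffold of another cullin ligase, rose most. It was at 382 and 323 FPKM in mahj against 37.2 to 47.6 FPKM in WT, 8.12-fold the WT mean (2.99 on the log2(FPKM + 1) scale, SE 0.11, adjusted p = 2.5e-09). The DDB1 gene piccolo (pic) was at 81.6 and 67.4 FPKM against 51.5 to 63.8 FPKM (0.40, adjusted p = 0.021, and above 0.1 without mahj1). The ubiquitin-like Nedd8, which is attached to cullins to activate them, was at 149 and 150 FPKM against 176 to 236 FPKM (−0.40, adjusted p = 0.025). The RING subunit Roc1a, the COP9 signalosome subunit alien and mahj itself were the other genes that fell. Without either mahj library Nedd8 and Roc1a did not pass the test. For the whole list, 1 rose and 1 fell without mahj1, and 2 rose and 1 fell without mahj2.

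Of 14 apicobasal polarity genes, 2 rose and none fell, against 9.33% and 6.70% of all genes, which is not a result about the list. bazooka (baz), the Par-3 scaffold of the apical junction, was at 404 and 223 FPKM against 26 to 53.3 FPKM in WT, 7.89-fold the WT mean (2.92 on the log2(FPKM + 1) scale, SE 0.25, adjusted p = 1.4e-05). scribble (scrib), which acts with Lethal giant larvae and Discs large at the basolateral membrane, was at 101 and 101 FPKM against 28.8 to 41.6 FPKM (1.47, SE 0.12, adjusted p = 6.5e-06). Both calls held without mahj1, without mahj2 and without WT4. The binding partner of Mahj itself, l(2)gl, was at 66.2 and 67 FPKM within a WT range of 49.2 to 86.6 FPKM, and dlg1 was at 42.8 and 46.1 FPKM within 36.2 to 54.1 FPKM. None of 17 genes of adherens and septate junctions was called by limma, and 0 had an unadjusted p under 0.05. Against WT1 and WT2 alone 3 of them were called lower.

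In the JNK cascade the ligand, an adaptor and an activator rose. Of 18 core genes tested, 4 rose and none fell, against 9.33% of all genes that rose. The TNF ligand eiger (egr) was at 12.9 and 9.11 FPKM in mahj against 3.99 to 6.27 FPKM in WT (1.02 on the log2(FPKM + 1) scale, adjusted p = 0.00064). The adaptor Traf4 was at 26.8 and 20 FPKM against 7.97 to 10.4 FPKM. Gadd45, an activator of a JNK kinase kinase, was at 60 and 61 FPKM against 8.82 to 16.4 FPKM (2.17, adjusted p = 8.6e-06). The kinases were not called, with basket (bsk, JNK itself) at 54.7 and 57.6 FPKM against 54.8 to 62.1, and hemipterous (hep) at 22.4 and 22.9 FPKM against 16.2 to 25.1. The phosphatase puckered (puc), which is both a target and an inhibitor of JNK, was at 22.2 and 20 FPKM against 10.7 to 17.8 FPKM. The groups did not overlap in puc, but its adjusted p was 0.054 and it was not called when either mahj library was left out.

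Of 17 genes listed as JNK targets, 11 rose and none fell, against 9.33% and 6.70% of all genes. Ilp8, Ets21C and upd3 passed the filter only through the mahj libraries. The list had a median difference of 0.73 against −0.01 over all genes tested. The list was drawn up with earlier results of these data known, so its direction is not independent evidence. Besides Ilp8, the transcription factor chinmo was at 19 and 11.6 FPKM against 0.787 to 2.78 FPKM in WT (2.61 on the log2(FPKM + 1) scale, adjusted p = 3.2e-05). The Ets-domain factor Ets21C was at 8.84 and 2.88 FPKM against 0.274 to 1.07 FPKM (1.96, adjusted p = 0.00053). mahj1 was the higher library for each of them. The pro-apoptotic gene reaper (rpr) was at 49.5 and 31.9 FPKM against 14.7 to 25.3 FPKM, with an adjusted p of 0.0069 that became 0.28 without mahj1 and 0.105 against WT1 and WT2 alone. ftz-f1, cher (filamin), Atf3, scaf, Mmp1 (matrix metalloprotease), upd3 and puc were the other members that rose. Without mahj1, 3 of the 17 were called, without mahj2 6, and without WT4 11.

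The JAK/STAT ligands and 2 of their feedback inhibitors rose. Of 12 genes of the pathway tested, 7 rose and none fell, against 9.33% and 6.70% of all genes, with a median of 0.60 against −0.01. upd2 and upd3 passed the filter only through the mahj libraries, so the other 5 rises are those of members that WT libraries also expressed. One of these is chinmo, whose values are given above. chinmo and upd3 are also on the list of JNK targets, so the counts of both lists share members. The cytokine gene unpaired 3 (upd3) was at 4.27 and 2.6 FPKM against 0.232 to 0.531 FPKM, and upd2 was at 2.86 and 1.28 FPKM against 0.131 to 0.455 FPKM. upd1 was at 7.4 and 4.6 FPKM against 2.7 to 3.9 FPKM. The feedback inhibitors Socs36E, at 57.2 and 34 FPKM against 19.3 to 23.2, and Socs44A, at 22.9 and 24 FPKM against 8.01 to 12.3, also rose (1.00 and 1.05 on the log2(FPKM + 1) scale). The receptor domeless (dome) was at 42.4 and 40.8 FPKM against 29.9 to 38.3 FPKM, with an adjusted p of 0.077 that was above 0.1 without either mahj library and without WT1, WT2, WT3 or WT5. The kinase hop, at 19.5 and 20.1 FPKM against 19.8 to 21.9, and the transcription factor Stat92E, at 70.1 and 67.4 FPKM against 47.1 to 75.8, were not called. Of the 7 calls, 3 were made without mahj1 and 4 without mahj2.

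The transcription factor Xrp1 and its partner Irbp18 both rose. Xrp1, a stress-inducible bZIP factor, was at 462 and 406 FPKM in mahj against 150 to 207 FPKM in WT, 2.48-fold the WT mean (1.31 on the log2(FPKM + 1) scale, SE 0.12, adjusted p = 1.1e-05). Irbp18, a C/EBP-type bZIP protein that binds Xrp1, was at 126 and 101 FPKM against 30 to 39.7 FPKM, 3.36-fold the WT mean (1.72, SE 0.11, adjusted p = 7.7e-07). Both calls held when either mahj library was left out.

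Of 29 genes of DNA break repair and checkpoints, 16 rose, none fell and 13 were not called, against 9.33% and 6.70% of all genes, with a median of 0.46. The 2 subunits of the Ku heterodimer that binds broken ends were both higher. Irbp (Ku70) was at 31 and 24.2 FPKM against 5.83 to 9.11 FPKM, and Ku80 was at 32.3 and 28.2 FPKM against 9.47 to 13.6 FPKM (1.71 and 1.36 on the log2(FPKM + 1) scale). All 3 genes of the MRN complex, which processes broken ends, rose as well. mre11 was at 65.8 and 49.7 FPKM against 22.7 to 33.5, rad50 at 38.3 and 30.6 against 15.5 to 20.7, and nbs at 24.1 and 18.5 against 11.4 to 13. agt, an alkylguanine-DNA alkyltransferase, was at 45.1 and 38.5 FPKM against 8.09 to 16.4 FPKM (1.72, adjusted p = 3.4e-05). Corp, DNAlig4, XRCC1, Xpc, Ercc1, Gen, PolQ, PolZ1, RPA1 and p53 completed the 16, with p53 at 19.3 and 16 FPKM against 10.7 to 15.4 FPKM (adjusted p = 0.071, above 0.1 without either mahj library, WT2 or WT3). The checkpoint kinases mei-41, tefu, lok and grp and the recombinase spn-A were not called. Without mahj1 8 of the 29 were called, without mahj2 13 and without WT4 16.

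**Figure D3:**
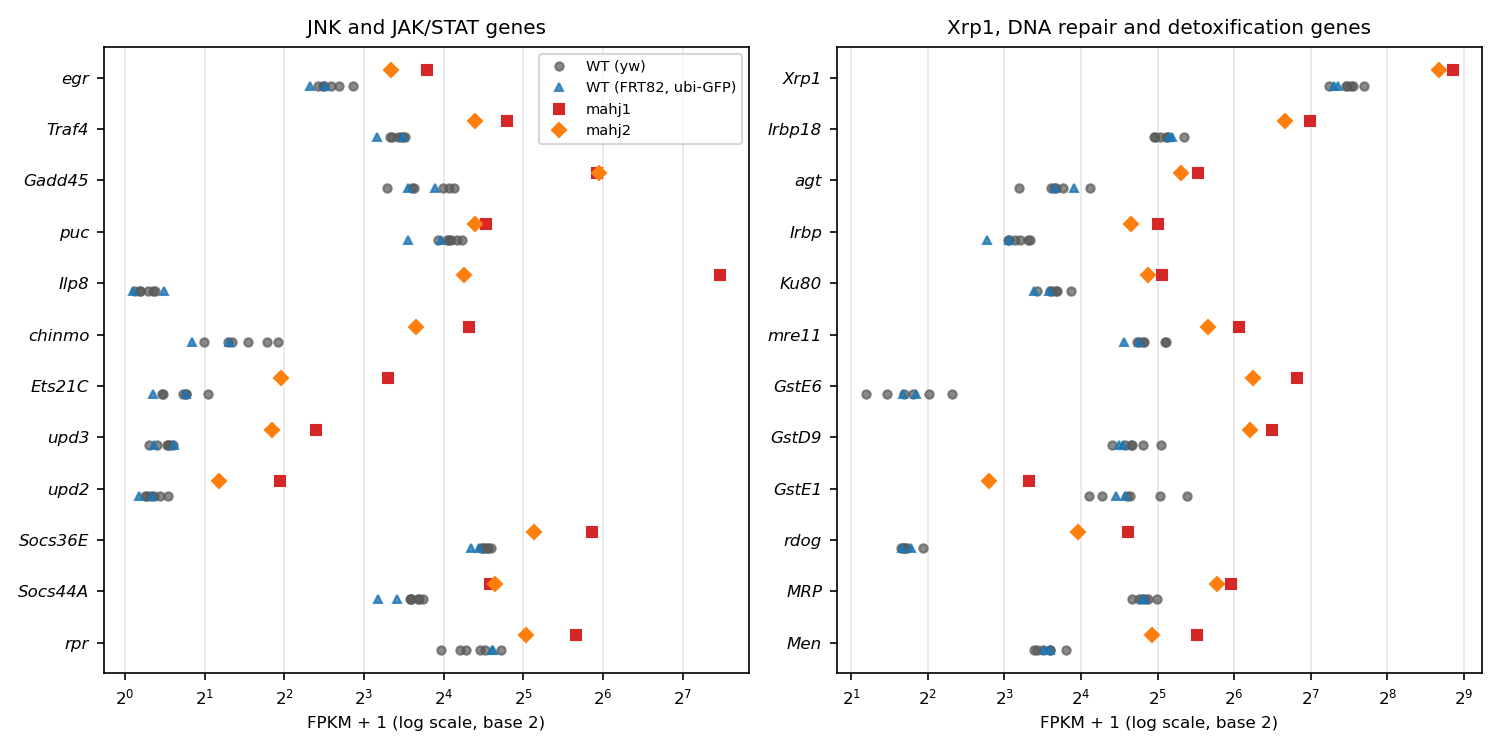
FPKM + 1 on a log axis for 12 genes of the JNK and JAK/STAT lists (left) and 12 genes of the Xrp1, repair and detoxification lists (right), 1 point per library with symbols for yw WT, FRT82, ubi-GFP WT, mahj1 and mahj2. Both mahj points lie above all 8 WT points for every gene drawn except GstE1, where both lie below. The genes were picked from called members, so this separation follows from the choice. Members that were not called, such as bsk, hep, hop and Stat92E, are not drawn. Of all genes tested, 22.5% had no overlap.

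Detoxification genes moved in both directions. Of 30 glutathione S-transferases tested, 9 rose and 5 fell, against 9.33% and 6.70% of all genes, with a median of 0.12. GstE8 was at 16.9 and 14.2 FPKM against 1.21 to 5.36 FPKM and GstD9 at 89.5 and 72.7 FPKM against 20.2 to 31.9 FPKM. GstE1, in contrast, was at 8.96 and 5.93 FPKM against 16.2 to 40.6 FPKM (−1.58 on the log2(FPKM + 1) scale, adjusted p = 0.0028). GstE7, GstE3, GstD3, GstD5, GstD10 and GstT1 also rose, and GstE13, GstO3, GstZ1 and GstZ2 also fell. Genes of the GstE and GstD clusters are close relatives, and shared reads could move values between them. Without mahj1 4 rose and 2 fell, and without mahj2 8 rose and 4 fell.

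The 13 ABC transporter genes listed are mostly of the multidrug-resistance kind and are not the whole family. Of them, 7 passed the expression filter and these rose, against 9.33% of all genes. The multidrug-resistance genes rdog, at 23.4 and 14.5 FPKM against 2.13 to 2.82, and MRP, at 61.2 and 53.7 FPKM against 24.3 to 30.7, were among them (2.56 and 1.05 on the log2(FPKM + 1) scale). Mrp4, at 3.58 and 1.93 FPKM against 0.158 to 0.663, passed the filter only through the mahj libraries. Without mahj1 3 of the 7 were called, and without mahj2 5. Of 25 cytochrome P450 genes, 5 rose (20%) and 2 fell (8%), against 9.33% and 6.70% of all genes, so the share that fell was near that over all genes. Cyp6d2 was at 11.6 and 6.56 FPKM against 0.459 to 1.9 FPKM, and Cyp9c1 at 48.7 and 38 FPKM against 9.81 to 23.5 FPKM. The 2 that fell were Cyp4p1 and Cyp4p2. Of 8 UDP-glycosyltransferases, Ugt302K1 and Ugt302C1 rose (25%) and Ugt36D1 and Ugt317A1 fell (25%). Ugt302K1 was at 131 and 108 FPKM against 9.31 to 30.3 FPKM (2.73, adjusted p = 0.0024).

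The main oxidative stress regulators did not pass the test. cnc, the Nrf2 factor, was at 33.8 and 32.9 FPKM within 18.3 to 33.9 FPKM of WT, and its inhibitor Keap1 at 6.86 and 6.78 FPKM within 6.64 to 8.21 FPKM. Of 5 regulators, ref(2)P (p62, an autophagy receptor) rose and maf-S fell. ref(2)P was at 65.8 and 56.1 FPKM against 41.9 to 47.4 FPKM (0.44, adjusted p = 0.0041, above 0.1 without mahj1). Of 25 genes of glutathione synthesis and antioxidant enzymes, 3 rose (12%) and 2 fell (8%), near the 9.33% and 6.70% of all genes. Malic enzyme (Men), a source of NADPH, was at 44.9 and 29.4 FPKM against 9.5 to 13 FPKM (1.67, adjusted p = 6.5e-06). Gclc, the catalytic subunit of the rate-limiting enzyme of glutathione synthesis, was at 15.5 and 11.9 FPKM against 5.89 to 7.93 FPKM (0.92). Prx2 was the third that rose, with overlapping groups, while Idh and Sod3 fell.

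Immune, apoptosis and fitness genes showed single changes within lists that were mostly not called. Of 23 Toll and IMD genes, 5 rose (21.7%) and 1 fell (4.35%), against 9.33% and 6.70% of all genes. The NF-kB factor Dif was at 22.6 and 12.4 FPKM against 1.67 to 5.69 FPKM in WT (1.88 on the log2(FPKM + 1) scale, adjusted p = 0.00082), and the Toll ligand spätzle (spz) at 4.97 and 3.72 FPKM against 1.44 to 2.48 FPKM. The recognition protein PGRP-SA, cactin and Traf4 also rose. SPE, the protease that activates Spätzle, was at 1.25 and 1.18 FPKM against 3.5 to 4.7 FPKM (−1.19). The other NF-kB genes dl and Rel were not called. Neither of the 2 antimicrobial peptide genes that passed the filter, of 19 listed, was called, and 0 of them had an unadjusted p under 0.05 in limma. Of 11 apoptosis genes, rpr rose (9.09%) and the caspases Strica and Drice fell (18.2%), against 9.33% and 6.70% of all genes. The share that rose was thus near that over all genes. The inducer hid was at 56.6 and 57.5 FPKM, above the 23.4 to 48.5 FPKM of WT, with an adjusted p of 0.19, and Diap1 was at 181 and 200 FPKM against 184 to 218 FPKM.

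Of 7 fitness-comparison genes tested, egr, spz and Ptp10D rose (42.9%), against 9.33% of all genes. Ptp10D, a receptor tyrosine phosphatase that responds to its ligand Sas on neighbouring cells, was at 39.5 and 39.2 FPKM against 18.2 to 28.1 FPKM (0.77, adjusted p = 0.0023). Myc was at 58.8 and 56.9 FPKM against 26.4 to 57.7 FPKM, and fwe, sas and SPARC were not called either. Without mahj1 2 of the 7 were called, and without mahj2 3.

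Of 20 genes of the integrated stress and unfolded protein responses, 6 rose and 1 fell, against 9.33% and 6.70% of all genes. PEK (PERK, a kinase of the translation factor eIF2) was at 48.5 and 43.7 FPKM against 29.1 to 33.2 FPKM (0.56, adjusted p = 0.00052). Gcn2, wfs1, trbl, Thor (4E-BP) and Gadd45 were the others that rose. Thor was at 39.2 and 20.6 FPKM against 11.1 to 23.5 FPKM, so its groups overlapped, and its adjusted p of 0.038 became 0.668 without mahj1. The ATF4 gene crc was at 756 and 754 FPKM within 597 to 789 FPKM. The chaperone BiP (Hsc70-3) fell by 0.31. Of 24 heat shock protein genes, stv rose (4.17%) and 5 fell (20.8%). The small heat shock protein Hsp23 was at 1714 and 1930 FPKM against 2486 to 4518 FPKM (−1.02, adjusted p = 0.0043, 0.13 without mahj1 and 0.113 against WT1 and WT2 alone), and Hsp27, Hsp67Ba and Hsp67Bc were the other small ones that fell. Hsp70Aa, a heat-inducible gene with near-identical copies, was at 148 and 177 FPKM against 0.837 to 232 FPKM in WT, which was too variable for a call. The heat shock list had a median of 0.27, of opposite sign to most of its calls.

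Of 35 proteasome subunits tested, 10 fell, none rose and 25 were not called, against 6.70% of all genes that fell, and the median was −0.29. The libraries did not overlap, with mahj lower, in 27 of the 35, against 10.5% of all genes tested. Most falls were small, such as those of Prosbeta3 at 157 and 175 FPKM against 195 to 263, and Rpn5 at 135 and 141 FPKM against 170 to 193. The largest were of Prosalpha1 and its near-identical tandem copy Prosalpha1R, described with their neighbours below. Without mahj1 2 of the 35 were called lower, without mahj2 4, without WT4 8. Of 21 autophagy genes, ref(2)P rose and Atg10 fell (4.76% each), against 9.33% and 6.70% of all genes.

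Few ribosomal protein and growth genes passed the test. Of 80 cytoplasmic ribosomal protein genes, none rose and 1, the weakly expressed RpS19b, fell, against 9.33% and 6.70% of all genes. The list median was 0.05. Against WT1 and WT2 alone, however, 39 of the 80 were called higher, so this count rested on which WT libraries served as controls. RpS3 was at 2627 and 2569 FPKM within 2057 to 3023 FPKM, and RpS15 at 3050 and 2990 FPKM within 2611 to 4102 FPKM of WT. Of 73 mitochondrial ribosomal protein genes, mRpL33, mRpL14 and mRpL24 fell (4.11%). Of 29 ribosome biogenesis genes, eIF6, Non1 and Polr1A rose (10.3%), with Non1 at 446 and 362 FPKM against 183 to 271 FPKM. Of 43 translation factors, 4 rose (9.30%), eEF2 and eIF3c among them, and eEF1alpha2 fell (2.33%), so the share that rose was near that over all genes. Of 31 aminoacyl-tRNA synthetases 4 rose (12.9%) and 2 fell (6.45%), by at most 0.42. Against WT1 and WT2 alone 12 translation factors, 13 biogenesis genes and 9 synthetases were called higher.

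Among metabolic genes, Ldh (lactate dehydrogenase) was at 44.7 and 39.1 FPKM in mahj against 6.07 to 13.9 FPKM in WT, 4.14-fold the WT mean (1.98 on the log2(FPKM + 1) scale, SE 0.23, adjusted p = 0.00013). Of 17 glycolysis genes, Ldh, Tret1-1, Ald1 and Pfk rose (23.5%), and fbp, Glut1 and Pdk fell (17.65%), against 9.33% and 6.70% of all genes. Tret1-1 was at 6.3 and 1.83 FPKM against 0.835 to 2.36 FPKM in WT, so its groups overlapped. Of 84 oxidative phosphorylation genes none rose and 5 fell (5.95%), against 9.33% and 6.70% of all genes, with a median of −0.16. The share that fell was thus near that over all genes. Those that fell were ox, ATPsynepsilonL, ND-MLRQ, COX6B and COX7C, with COX6B at 236 and 233 FPKM against 302 to 449 FPKM. None of the 5 was called lower without mahj1, and 4 genes of the list were without mahj2. Of 20 genes of amino acid and one-carbon metabolism, Gdh rose (5%) and Cth, slgA and CG11899 fell (15%). In the insulin and TOR list of 21 genes, Ilp8, Thor, ImpL2 and REPTOR rose (19.05%) and chico fell (4.76%). ImpL2, a secreted protein that binds insulin-like peptides, was at 87.2 and 72.2 FPKM against 34.3 to 57.6 FPKM (0.83, adjusted p = 0.015, above 0.1 without mahj1). Of 19 genes of the Hippo and Fat pathway, kibra alone was called (5.26%), higher by 0.29, and the effector yki was within its WT range.

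Of 28 pouch and boundary genes, 6 fell (21.4%) and none rose, against 6.70% of all genes that fell, with a median of −0.14. Of 22 proneural and sensory precursor genes, 9 fell (40.9%) and 1 rose (4.55%), with a median of −0.28. The zinc-finger factor senseless (sens), which marks sensory organ precursors, was at 1.34 and 2.41 FPKM against 3.87 to 5.12 FPKM (a fall by 1.00 on the log2(FPKM + 1) scale, adjusted p = 0.00055). The proneural genes achaete (ac) and scute (sc) were at 22.2 and 22.8 FPKM against 28.2 to 36.5, and at 18.1 and 20.1 FPKM against 26.3 to 32.1. Notch-responsive genes of the Enhancer of split complex fell too, among them E(spl)m7-HLH, E(spl)m8-HLH, E(spl)mgamma-HLH, E(spl)m5-HLH and E(spl)malpha-BFM. Brd, a small antagonist of Notch signalling, rose to 123 and 83.4 FPKM from 43.7 to 73.1 FPKM. Without mahj1 3 of the 22 fell, and without mahj2 5 fell and 1 rose.

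In the pouch list bs, Dll, rho, Doc2 and en fell beside sens. Dll, which specifies distal wing margin fates, was at 30.4 and 38.1 FPKM against 38.8 to 58.2 FPKM (−0.50, adjusted p = 0.021, above 0.1 without mahj1), and the posterior selector en was at 33.6 and 35.5 FPKM against 35.7 to 55.4 FPKM (adjusted p = 0.088, above 0.1 without either mahj library and without WT2, WT4, WT5, WT7 or WT8). vg, dpp and hh were not called, at differences of −0.24, 0.09 and −0.02. Without mahj1 1 of the 28 fell, and without mahj2 4. Of 17 notum, hinge and peripodial genes, Doc3 and toe fell (11.8%), against 6.70% of all genes. Markers of adult muscle precursors, cells that lie under the notum, moved with these lists. Him, twi and Mef2 fell, and the summed level of the 8 markers was 78.8 and 90.1 FPKM against 87.7 to 124 FPKM in WT (2-sided exact permutation test over libraries, p = 0.089). Their part in the patterning lists was not tested.

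Of 37 cell cycle genes RnrL rose and aurB fell (2.70% each), against 9.33% and 6.70% of all genes. CycB and stg were within their WT ranges, and PCNA was at 354 and 349 FPKM within 286 to 448 FPKM. Of 22 ecdysone response genes, 4 rose and 4 fell (18.2% each), against 9.33% and 6.70% of all genes. ImpE2, induced by ecdysone in discs, was at 393 and 1020 FPKM against 1620 to 3091 FPKM (−1.86 on the log2(FPKM + 1) scale, SE 0.30, adjusted p = 0.0018), and its adjusted p was 0.192 against WT1 and WT2 alone. ImpE1, Eip78C and Cth fell and Ldh, ftz-f1, ImpL2 and EcR rose. Eip74EF and Eip75B, direct targets of the ecdysone receptor, were at 23.7 and 22.2 FPKM within 19.1 to 25.5, and at 35.7 and 40.4 FPKM within 31 to 48.6.

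Of 31 cuticle and Osiris genes that passed the filter, of 128 listed, 11 rose and 5 fell, against 9.33% and 6.70% of all genes, with a median of 0.39. Of the 31, 5 passed the filter only through the mahj libraries. Osi14 was at 34.6 and 13.7 FPKM against 2.39 to 7.87 FPKM (2.32, adjusted p = 0.00079). Weakly expressed larval cuticle genes such as Lcp65Ag2, at 5.82 and 3.34 FPKM against 0 to 0.663, also rose. Without mahj1 1 of the 31 rose and none fell, and without mahj2 3 rose and 4 fell. Of 15 matrix genes Loxl1, dally and Mmp1 rose (20%). Of 6 actin genes Act42A alone was called, lower (16.7%), at 697 and 770 FPKM against 880 to 1104 FPKM. Of 5 tracheal markers 2 rose beside these lists, serp and verm, which are chitin-modifying enzymes shared with the cuticle list. The marker trh was not called, at 12.5 and 17.4 FPKM against 15.9 to 18.1 FPKM in WT. The 5 tracheal markers summed to 540 and 498 FPKM against 347 to 461 FPKM, and the 2-sided exact permutation p of 0.044 is the smallest that 2 against 8 libraries can give.

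The neuronal and glial markers summed to 19.2 and 18.4 FPKM against 9.25 to 18.1 FPKM (exact permutation p = 0.044), with moody called and elav, at 10.2 and 11.2 FPKM, within its WT range. Of 10 haemocyte markers tested NimC1 rose, to 2.37 and 1.24 FPKM from at most 0.382 FPKM, and Hml, at 1.27 and 0.574 FPKM, was not called. NimC1 was among 3 of these markers that passed the filter only through the mahj libraries. The haemocyte sum was 101 and 110 FPKM, within the 79.7 to 124 FPKM of WT. The mean of the markers on the log2(FPKM + 1) scale was 2.34 in mahj1, above the 1.23 to 2.115 of WT. It was 1.96 in mahj2 (2-sided exact permutation p = 0.178). Of 10 muscle markers Mlc2 and sls rose while Mhc did not pass the test, and the muscle sum of 143 and 172 FPKM lay within the 129 to 215 FPKM of WT. The salivary gland sum was 0.555 and 4.81 FPKM, within 0.278 to 40.7 FPKM, and 1 of the 7 markers was at 0 in both mahj libraries. No sex marker and no stock gene was called.

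**Figure D4:**
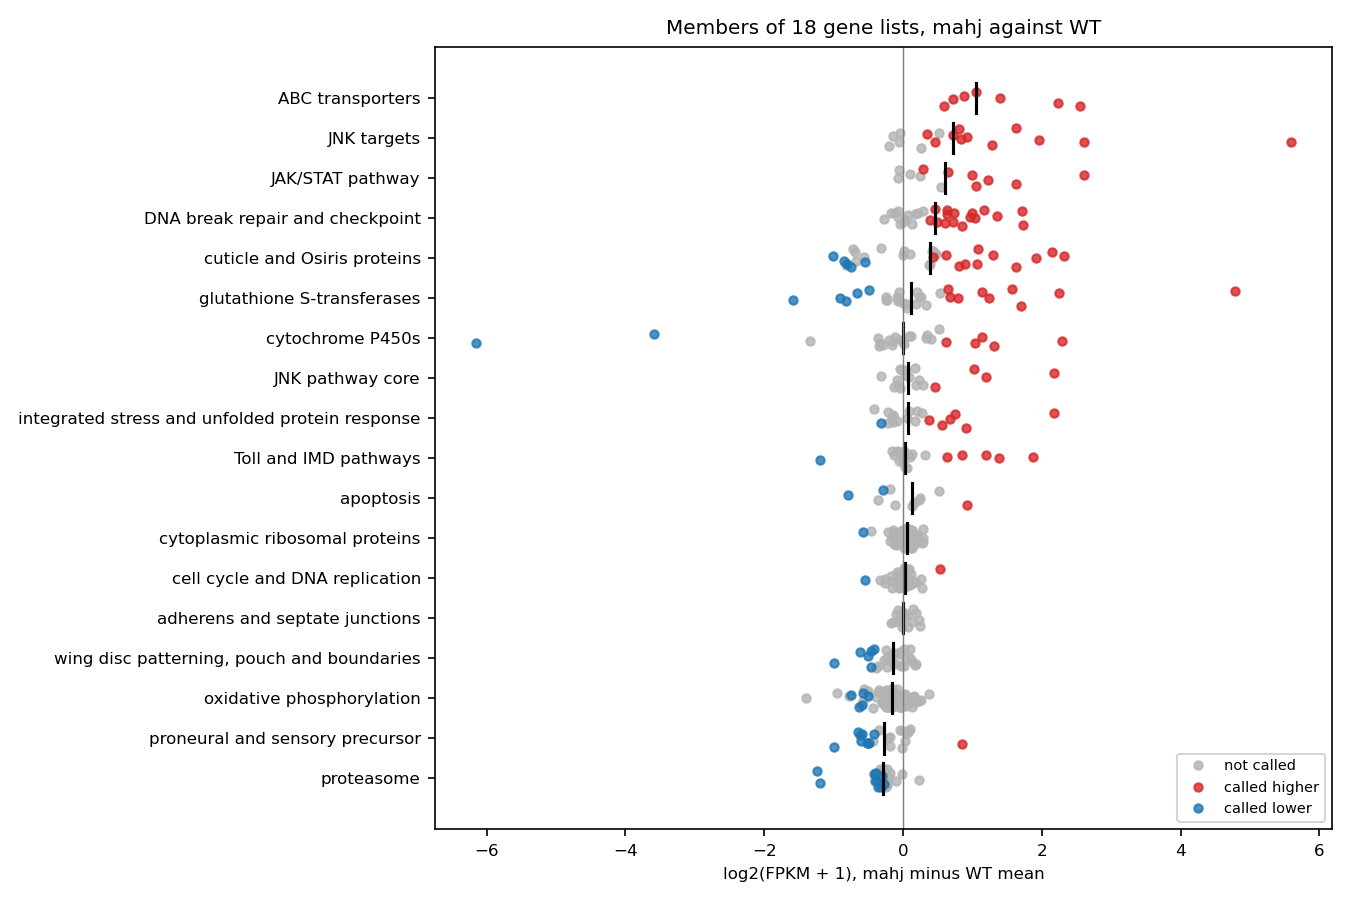
Difference of each tested member from WT on the log2(FPKM + 1) scale (x axis) in 18 gene lists (rows), with grey points not called, red called higher, blue called lower and a black bar for the list median. ABC transporters (median 1.05), JNK targets (0.73), JAK/STAT (0.60) and DNA repair (0.46) lie to the right of 0, proteasome (−0.29) and proneural (−0.28) lists to the left. The ABC transporter list holds mostly multidrug-resistance genes and is not the whole family.

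Differences from the other mutants were tested directly, in a fit of 16 libraries with WT, RpS3, RpS3*, RpS15 and mahj. mahj discs differed from RpS3 discs in 1268 of 8362 genes (15.2%, with 4.33% higher and 10.8% lower in mahj). They differed from RpS3* discs in 1652 (19.8%, with 6.05% higher and 13.7% lower) and from RpS15 discs in 2239 (26.8%, with 12.6% higher and 14.2% lower). Because these contrasts share the mahj libraries, a library that stands apart enters all of them. Among the 8145 genes tested against WT, 220 (2.70%) differed from WT and from all 3 other mutants in the same direction, 118 higher (1.45%) and 102 lower (1.25%). Without mahj1 42 genes met this rule, without mahj2 129 and without WT4 210.

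The genes that set mahj apart most were those nearly silent elsewhere. CG31206 was at 34 and 35.1 FPKM in mahj and at most 0.0372 FPKM on average in the other mutants, and mthl8 at 14 and 18.9 FPKM against at most 0.0181 FPKM on average. CG10887, CG15431, Nha2, CG34002 and CG43055 followed, with CG34002 at 4.95 FPKM in RpS3* discs the highest mean in another mutant. All of these genes, which were higher in mahj, passed the filter against WT only through the mahj libraries. They were picked by the size of their differences, so these are not independent evidence. CG3649, CG5397 and krimp were the 3 of these 10 that were lower in mahj. krimp was at 11.3 and 11.5 FPKM in RpS3, 8.34 and 10 in RpS3* and 9.61 and 7.06 in RpS15, against 0.31 and 0.483 in mahj (−3.15, −2.86 and −2.73 on the log2(FPKM + 1) scale). del, another piRNA pathway gene that was chosen after its values were seen, was at 4.86 and 6.07 FPKM in mahj against 9.44 to 17 FPKM in WT, and was lower than in each other mutant as well. mahj mRNA was itself among the 220, at 27.9 to 30.4 FPKM on average in the other mutants.

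Of the pathway genes above, some also differed from the other mutants and others did not. scrib was at 36.8 FPKM in RpS3 and 36.9 in RpS3* on average and 40.7 FPKM in RpS15, against 101 and 101 in mahj (1.43, 1.43 and 1.30 higher, adjusted p at most 1.3e-05). chinmo was at 2.9, 5.01 and 1.14 FPKM on average in RpS3, RpS3* and RpS15, below both mahj libraries at 19 and 11.6. Ets21C, upd2, Socs44A, Men, GstD9, Ldh, Non1, Ptp10D and Nedd8 also differed from WT and all 3 mutants. For Ldh the means were 11.7, 19 and 16.7 FPKM in RpS3, RpS3* and RpS15. baz was at 244 and 312 FPKM in RpS3 and RpS3*, and its differences of 0.32 and −0.05 from mahj did not pass the test (adjusted p = 0.53 and 0.94), while RpS15 was at 64.3 FPKM. Cul2 was at 179 FPKM in RpS3, below mahj (0.98, adjusted p = 0.0011), 356 in RpS3* and 51.1 in RpS15. Xrp1 was at 469, 525 and 59.2 FPKM in RpS3, RpS3* and RpS15. Its difference from mahj did not pass the test for both RpS3 alleles and was 2.85 against RpS15 (adjusted p = 3.2e-10). Ilp8 was at 2.93, 25.3 and 0.328 FPKM, and differed from mahj by 3.97 for RpS3 (adjusted p = 0.0036) and 1.16 for RpS3* (adjusted p = 0.28).

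**Figure D5:**
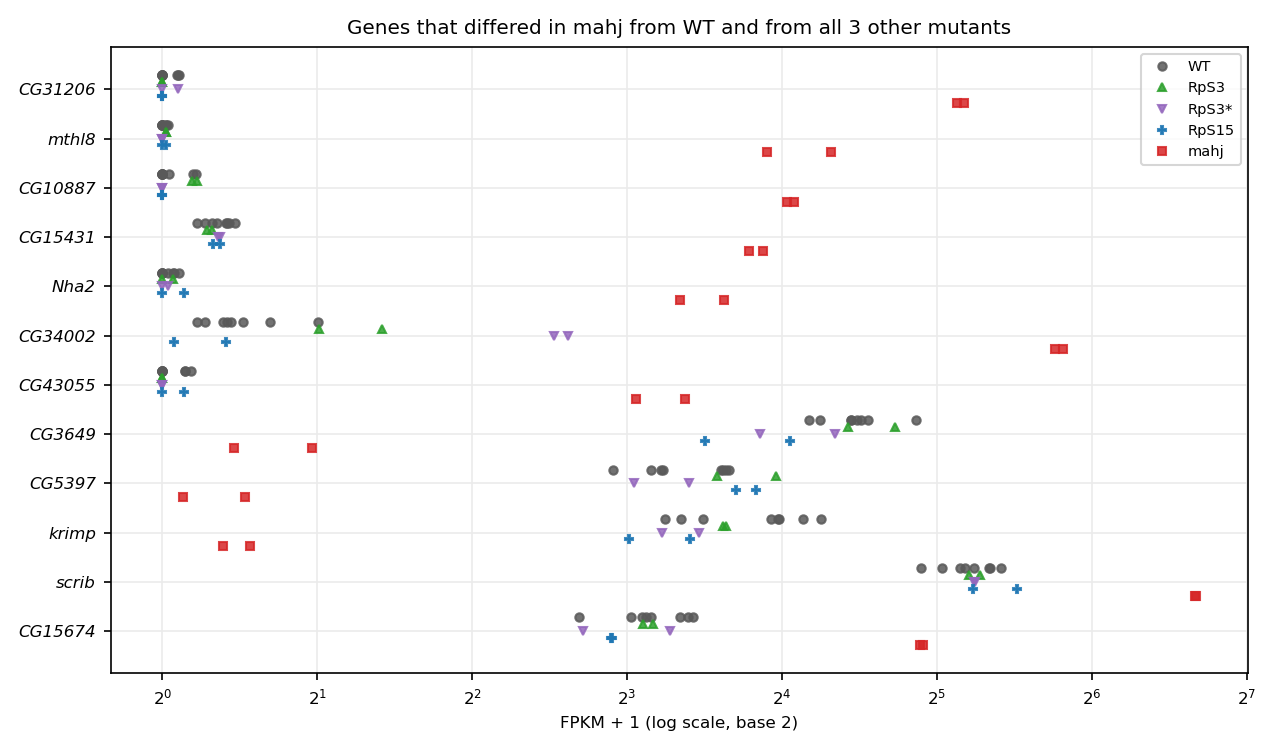
FPKM + 1 on a log axis, 1 point per library, for the 10 genes that differed most from WT and all 3 other mutants and for scrib and CG15674, with WT in grey, RpS3 green, RpS3* purple, RpS15 blue and mahj red. The 2 mahj libraries lie on their own side of all 14 other libraries in every gene drawn. The genes were picked with these differences known, so the separation follows from the choice.

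Some of the 220 genes were neighbours. Of the 213 with a position on a chromosome arm, 28 lay next to another of them with the same direction, in the order of tested genes, in 12 runs. This is a share of 13.2%, and among all genes called against WT it was 31.8% (407 of 1278). A larger set has more neighbours by its number alone, so these shares cannot be set against each other. Whether the genes lay together more than their number gives was not tested. The longest was of 4 genes on 2R from 7827303 to 7835518 (BDGP6.54), Prosalpha1, CG18853, Prosalpha1R and Atg10, all lower. Prosalpha1R was at 97.7 and 101 FPKM in mahj against 186 to 294 in WT, CG18853 at 8.82 and 9.53 against 15 to 22.1, and Atg10 at 2.38 and 3 against 5.96 to 9.27 FPKM. Prosalpha1 and Prosalpha1R share nearly all their sequence, so their separate values are uncertain. CG31206 and CG10887 lie together on 3R from 20106936 to 20117139 and CG15431 and CG43055 on 2L, where CG43055 lies inside the span of CG15431. PXo and CG32407 on 3L, the 3 Lcp65Ag genes on 3L and Zaf1 with CG14711 on 3R, which overlap, were other runs. CG14711 was at 56.9 and 74 FPKM against 11.3 to 15.4, and Zaf1 at 22.6 and 27.7 against 7.85 to 10.4 FPKM. Whether counting used strand is not given in the sources used here, so reads of overlapping genes may not be told apart.

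Calls were spread over the genome. The share of tested genes called was 17.5% on 2R, the arm of mahj, 18.7% on 2L, 16.4% on 3L, 15.4% on 3R and 12.6% on X. Within 0.5 Mb of mahj 11 of 85 genes rose and 3 fell, a share of 16.5%, and from 10 Mb outwards on the arm it was 18.4%. Genes that differed from WT and from all 3 mutants made up 3.49% of 2R, 3.37% of 2L and 3.003% of 3L genes. On chromosome 4 the share was 3.175% (2 of 63 genes), on 3R 1.95% and on X 1.65%. The calls depended on the level in WT. Of 364 genes with a WT mean under 1 FPKM 140 rose and 4 fell, where such genes often passed the filter through the mahj libraries, whereas of 868 genes with a mean of at least 100 FPKM 34 rose and 91 fell. The median exon length was 2153 bp for genes that rose, 1838 bp for those that fell and 2106 bp for the rest.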

How the data were processed

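For each library the authors deposited a single value for every gene, taken as FPKM because its steps are whole reads scaled by exon length and library size. The submitters' processing notes name BWA 0.6.2 and the dm3 build without a role, and the counting and normalization tools are not given in the sources used here. Runs of a library had been pooled. Values were used as deposited on the log2(FPKM + 1) scale in limma 3.58.1 (R 4.3.3, moderated variance with trend and robust), which was tested on simulated data. Genes with at least 1 FPKM in 2 of the compared libraries were tested, and those with p under 0.1 after Benjamini-Hochberg adjustment were called. The understated change of weak genes follows from the pseudocount of 1. Symbols and positions come from BDGP6.54 by gene identifier, and 294 of 13955 identifiers had none. Named genes were mahj, the 15 largest rises and falls with non-overlapping libraries and a mean of at least 5 FPKM in the higher group, up to 5 called members and the defining members of each of 50 lists, the 10 genes furthest from the other mutants and the 5 furthest apart between the mahj libraries. Other list members and del, CG18853, CG14711, Zaf1, PXo, CG32407 and CG15674 were chosen after their values were seen. Members and lists were chosen with earlier results of these data known. Alternatives were other WT sets, thresholds, filters, pseudocounts, scalings, a replicate block and leaving out each library. The columns of RpS3+puc discs entered only the fit of all 19 libraries. Marker sums used 2-sided exact permutation tests (scipy 1.17.1).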

Additional observations from a re-analysis of the deposited data

Results flagged for a closer look

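In each of the 32 genes that the rules on the largest changes and on the other mutants name, mahj included, the 8 WT libraries were searched for a library far from the rest. For 3 genes 1 WT library stood apart, and chance alone flags about 1 in 20 groups. CG18063 was at 0.102 FPKM in WT5 and at 0 in the other 7, far below the 29.2 FPKM of mahj2. The gene listed as FBgn0038347 was at 0.466 FPKM in WT8, and CG15784 was at 20.9 FPKM in WT6, also far below both mahj libraries.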

How the results depend on the processing

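The comparison rests on 2 mutant libraries, of which mahj1 has high fat body markers and usually lies further from WT, and no WT library shares the FRT42D chromosome. The promoter-motif alternative was not run, since no sequence table was at hand. The 1306 calls were 1425 against the yw libraries, 1005 against WT5 and WT6, 1239 against single-run libraries, 941 at an adjusted p under 0.05, 1283 with a pseudocount of 0.1, and 1417 with median-of-ratios scaling, and no gene turned direction in any of these settings. Against WT1 and WT2 alone 2555 genes were called (1520 higher, 1035 lower), and a joint fit of the 19 libraries called 861 lower. Replicate numbers do not pair these libraries, since the labels give them no shared batch. The correlation of the mahj1 to mahj2 difference with that of WT1 to WT2 was 0.108 across genes, and the replicate block called 2972 genes (1740 higher, 1232 lower). Leaving out 1 library gave 281 to 1446 calls, 185 to 845 higher and 96 to 613 lower. Against RpS3, RpS3* and RpS15 the replicate block called 3248, 3623 and 3966 genes, and leaving out 1 mahj library gave 287 to 523, 423 to 569 and 775 to 1630. At an adjusted p under 0.05, 722 and 926 genes differed from RpS3 and RpS3*, and 37 within WT, where leaving out WT5 or WT6 gave 31 to 96. The genes set apart from all 3 mutants numbered 42 without mahj1, 129 without mahj2 and 210 without WT4, the last chosen after seeing the data, and no other WT library was left out for this count. Of 218 single genes followed through the settings, 199 were tested without mahj1, of which 95 lost their call, and 200 without mahj2, of which 46 did, and none turned direction while called. At this depth 1 read on 1 kb is 0.0589 to 0.0825 FPKM, so levels below that are not told from 0.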
